A study of Mus musculus with 4 samples.

Results

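Metallothioneins and zinc transporters were followed in mouse kidney through 10 genes chosen by symbol: the metallothioneins Mt1 and Mt2, the zinc importers Slc39a4, Slc39a5, Slc39a8 and Slc39a14, and the zinc exporters Slc30a1, Slc30a2, Slc30a4 and Slc30a10. All probes annotated to these symbols were taken, which gave 14 probes for 9 genes, of 24613 probes and 15967 named genes on the array. No probe was annotated to Slc30a10, which is not analysed here. Of the 9 genes, 5 had 1 probe and 4 had several.

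The kidneys came from mice of the inbred strains FVB/N and C57BL/6, each as a diabetic group and a control group, in a study of early diabetic change in the kidney on different genetic backgrounds. The groups were FVB/N diabetic, FVB/N control, C57BL/6 diabetic and C57BL/6 control, at 8 weeks of age, of both sexes and after 21 days as diabetic or control mice, per the labels and the series text. Controls were injected with saline, and the agent or lesion behind the diabetes is not named in the labels. Each group stands for 6 kidneys but has a single column of array values, its library, and the labels do not say if that is a pool or 1 kidney.

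Metallothioneins are small proteins rich in cysteine that bind zinc, copper and cadmium and buffer zinc inside the cell. Their genes are switched on by metals through the zinc-sensing factor MTF1, and also by glucocorticoids, oxidative stress and interleukin 6. Zinc enters the cytosol through the importers of the Slc39a (ZIP) family and leaves it, towards the outside or into vesicles, through the exporters of the Slc30a (ZnT) family. The kidney reabsorbs filtered zinc along the tubule, and metallothionein in tubule cells is known as a store for metals such as cadmium.

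Values are log2 intensities, so a difference of 1 is a 2-fold difference. They ran from 4.45 to 15.84, with a median of 5.48 or 5.49 in every library. A gene is represented by its brightest probe on average and counts as expressed when that probe's mean is at or above 5.49, the median over all probes, which kept 9201 genes and all 9 measured metallothionein and zinc transporter genes. Since every group is 1 library, the spread between replicates is unknown and no difference below has a test. As a guide to probe noise only, the spread of single-probe differences was taken from 1159 genes with 2 expressed probes. This spread compares probes within the same libraries and leaves out variation between mice or arrays that both probes share. As a standard deviation it came to 0.50 log2 for diabetic minus control in FVB/N, 0.33 in C57BL/6, 0.58 for FVB/N minus C57BL/6 in diabetics and 0.41 in controls. A difference of at least 1.5-fold, 0.58 on the log2 scale, was counted as higher or lower. The FVB/N diabetic library stood somewhat apart: its probes lay a median of 0.23 to 0.24 log2 from those of the other libraries, in either direction, against 0.17 to 0.20 among the others. The kidney markers Slc34a1, a phosphate transporter, and uromodulin, Umod, were bright in all 4 libraries, between 14.52 and 14.97 and between 12.04 and 12.64. Not all kidney markers were. The podocyte marker Nphs1 lay between 5.40 and 5.91. The proximal tubule marker Slc5a2 measured 8.49 and 8.18 in the FVB/N diabetic and control libraries, against 11.73 and 11.89 in those of C57BL/6. Among controls, 2 of 8 expressed proximal tubule markers were at least 1.5-fold higher in FVB/N than in C57BL/6 and 1, Slc5a2, lower. The shares over all expressed genes were 6.29% higher and 6.75% lower. The median of the 8 markers, FVB/N minus C57BL/6, was -0.06. Whether the strains differ in sequence under the Slc5a2 probe was not tested. In whole kidney, fewer cells of a type and less RNA per cell cannot be told apart.

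The sequences before the starts of Mt2, Mt1 and Slc30a1 are shown because these genes are the classic targets of MTF1, through which zinc itself sets their transcription. RefSeq windows of build GRCm38.p6 were searched on both strands for the core of the metal response element, spelled TGCACNC or TGCGCNC, in 250 bases before and 50 bases after each start. Matches are in capitals, on the strand of the gene, and none of those shown overlap each other. The windows of Mt2 and Mt1 are at chr8:94172368-94172617 and chr8:94178839-94179088, and that of Slc30a1 at chr1:191906531-191906780, all on the plus strand and without the 50 bases after the start.
Mt2: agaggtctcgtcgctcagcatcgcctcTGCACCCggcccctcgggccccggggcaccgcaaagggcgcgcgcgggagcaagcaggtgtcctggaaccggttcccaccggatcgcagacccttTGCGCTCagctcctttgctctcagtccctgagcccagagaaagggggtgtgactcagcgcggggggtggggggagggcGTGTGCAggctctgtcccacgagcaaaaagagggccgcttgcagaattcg
Mt1: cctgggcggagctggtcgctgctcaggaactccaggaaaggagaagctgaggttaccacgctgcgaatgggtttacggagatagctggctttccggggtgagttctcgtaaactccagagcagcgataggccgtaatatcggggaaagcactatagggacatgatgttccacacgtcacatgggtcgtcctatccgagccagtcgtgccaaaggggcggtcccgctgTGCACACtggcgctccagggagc
Slc30a1: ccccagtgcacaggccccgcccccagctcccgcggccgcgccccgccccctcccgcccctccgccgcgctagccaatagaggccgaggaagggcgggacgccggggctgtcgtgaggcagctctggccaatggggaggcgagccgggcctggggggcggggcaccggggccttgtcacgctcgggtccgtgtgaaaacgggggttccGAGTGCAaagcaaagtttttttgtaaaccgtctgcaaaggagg
Matches past the start of Mt1: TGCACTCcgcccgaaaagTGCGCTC
Mt2 held 4 matches, 3 of them before the start. Mt1 held 3 matches in its window, 1 before the RefSeq start and 2 in the stretch shown last, at chr8:94179091-94179115. Sequence more than 50 bases past that start was not searched, so further matches there are not counted. RefSeq starts are annotated positions, and where transcription begins in these kidneys was not tested. A match past the RefSeq start is thus not shown to lie inside the transcript. Slc30a1 held 2 matches, 1 on each side of its start. Of all 32851 windows of this length, 25.7% held at least 1 match, 1.97% at least 3 and 0.517% at least 4. Windows were found for 8 of the 10 genes. Slc30a4 held 3 matches, Slc30a10 3, of which 2 overlap, and Slc30a2 2, while Slc39a8 and Slc39a5, which have 2 windows each, held at most 1 per window. The core of the antioxidant response element, TGACNNNGC, was in 12.4% of all windows; Mt2 and Slc30a1 held 1 match each and Mt1 none. One window of Slc39a8 held 1 match and one of Slc39a5 held 2, where 0.986% of all windows held at least 2. On the chromosome, the RefSeq table puts Mt4, Mt3, Mt2 and Mt1 next to each other, with 1 noncoding gene between Mt3 and Mt2. A match is a string of letters and says nothing of whether MTF1 bound there.

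The first question is how the metallothioneins stood in diabetic kidneys. Mt1 was higher in the diabetic library of both strains by about the same amount, while Mt2 was higher in C57BL/6 diabetic kidneys and level with control in FVB/N. Mt1 measured 14.56 in the FVB/N diabetic library, against 14.21 in the FVB/N control library. In C57BL/6 it measured 14.30 in the diabetic library, against 13.95 in the control library. Both diabetic libraries were thus above both control libraries, by at least 0.09 log2. The diabetic minus control difference of Mt1 was 0.35 in FVB/N and 0.34 in C57BL/6, a 1.28-fold and a 1.27-fold difference, and neither reached 1.5-fold. The first lies below the single-probe standard deviation of 0.50 and the second close to that of 0.33. Of all expressed genes, 49.9% were at least as far apart in FVB/N and 33.2% in C57BL/6. The Mt1 probe lies high in the array's range, with 71 of 24613 probes brighter on average, and whether its signal was near saturation is not recorded in the values used.

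Mt2 measured 10.06 in the FVB/N diabetic library, against 10.08 in the FVB/N control library. The C57BL/6 values were 10.26 in the diabetic library, against 9.48 in the control library. The C57BL/6 control library was the low one, 0.58 log2 below the next, and the other 3 spanned 0.20. The difference was 0.79 in C57BL/6, 1.73-fold, and -0.02 in FVB/N. In C57BL/6, 5.12% of expressed genes were at least as far apart as Mt2, and in FVB/N 96.8%. The effect of diabetes on Mt2 was 0.81 log2 smaller in FVB/N than in C57BL/6, that of Mt1 larger by 0.00875, and without replicates neither was tested.

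**Figure D1:**
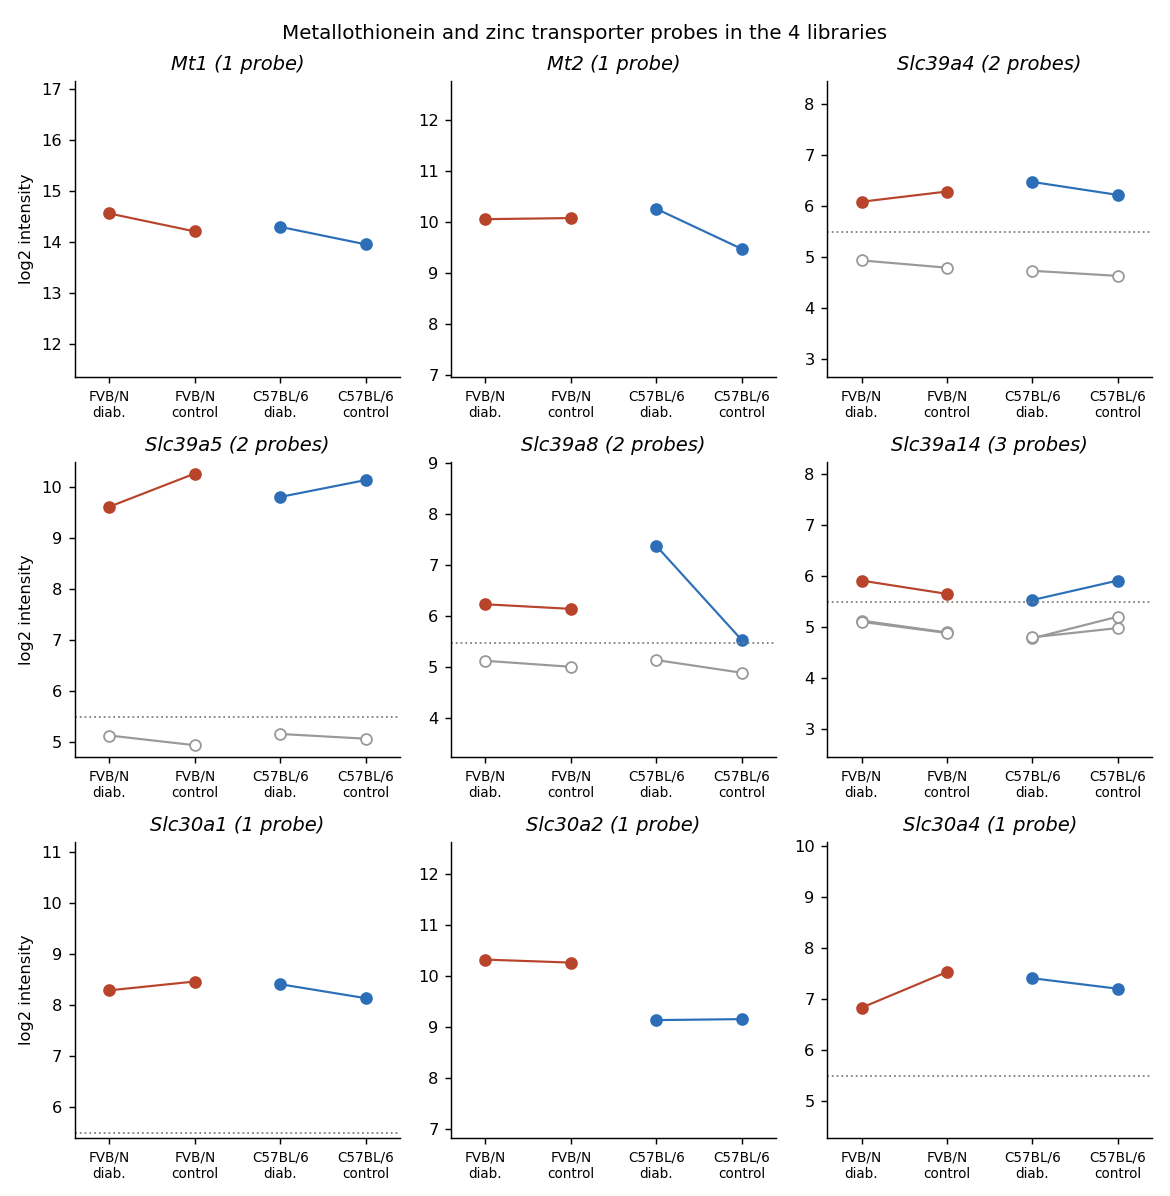
Log2 intensity of every probe (y axis) of the 9 measured genes in the FVB/N diabetic, FVB/N control, C57BL/6 diabetic and C57BL/6 control libraries (x axis), with the y axis of each panel spanning the same log2 distance. Filled points are the brightest probe of a gene, open grey points its other probes, and the dotted line is the median of all probes at 5.49; Slc39a8 stands out in the C57BL/6 diabetic library at 7.38, and Slc30a2 separates the strains.

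Among the importers, Slc39a8 had the largest diabetes difference of the 9 genes. Slc39a8 (ZIP8) carries zinc, manganese and iron across the plasma membrane and is known to be induced by inflammatory signals. Its brighter probe measured 6.24 in the FVB/N diabetic library, against 6.15 in the FVB/N control library. In C57BL/6 it measured 7.38 in the diabetic library, against 5.54 in the control library. The C57BL/6 diabetic library was the highest of the 4, by 1.14 log2, and the C57BL/6 control library the lowest and barely above the median of all probes. The difference was 1.85 in C57BL/6, 3.60-fold, and 0.09 in FVB/N. Of 9201 expressed genes, 11 were at least as far apart in C57BL/6, Slc39a8 among them. The other Slc39a8 probe stayed below the median of all probes in every library, between 4.90 and 5.15, and its C57BL/6 difference was 0.25, in the same direction. With both probes averaged, the C57BL/6 difference came to 1.05.

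Macrophage markers also stood higher in the C57BL/6 diabetic library. In C57BL/6, 3 of 6 expressed markers of 8 listed were at least 1.5-fold higher and 0 lower, beside 6.14% and 6.35% of all expressed genes. They were Lyz2, a lysozyme, at 1.18, C1qc of the complement system at 0.81 and the calcium-binding Aif1 at 0.65. The median of the 6 was 0.57 in C57BL/6 and 0.20 in FVB/N. Their summed intensity on the linear scale was 1084 in the C57BL/6 diabetic library, against 774 in the C57BL/6 control library. In FVB/N, 3 of the 6 markers were likewise at least 1.5-fold higher and 1 lower, beside background shares of 12.4% and 13.9%. There C1qb at 1.07, Lyz2 at 0.83 and C1qa at 0.62 were higher and Adgre1 at -1.46 lower. The summed intensity was 723 in the FVB/N diabetic library, against 777 in the FVB/N control library. Adgre1 was the brightest of these markers in the FVB/N control library, at 8.18, and measured 6.72 in the FVB/N diabetic library, so it weighs most on that sum. The median of the erythroid markers differed in sign between the strains. It was -0.76 in FVB/N, where 0 of 5 were higher and 3 lower, and 0.73 in C57BL/6, where 3 were higher and 0 lower. The 3 lower in FVB/N were the globins Hbb-b2 at -1.46 and Hbb-bt at -1.47, and Slc4a1 at -0.76. Slc4a1 is also on the list of intercalated cells and was at -0.21 in C57BL/6. Among controls Hbb-b2 and Hbb-bt differed between the strains by 4.13 and -1.93, FVB/N minus C57BL/6. Adipocyte markers had medians of -1.49 in FVB/N and -1.26 in C57BL/6. The part of these cells in the Slc39a8 and Mt2 differences was not tested.

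Slc39a5 (ZIP5), an importer of the basolateral membrane of polarized cells, was lower in both diabetic libraries. Its brighter probe measured 9.61 in the FVB/N diabetic library, against 10.26 in the FVB/N control library. For C57BL/6 the values were 9.81 in the diabetic library, against 10.14 in the control library. Both diabetic libraries were below both control libraries. The difference was -0.65 in FVB/N, 1.57-fold lower, and -0.33 in C57BL/6, where it stayed within 1.5-fold. Its other probe was near background in all 4 libraries, between 4.94 and 5.16, and did not show this, at 0.19 in FVB/N and 0.09 in C57BL/6. The mean of both probes was -0.23 in FVB/N. Slc39a5 is also a gene of the exocrine pancreas, and 2 of 6 expressed pancreas markers of 11 listed, Amy2a5 at -1.34 and Reg1 at -1.02, were lower in the FVB/N diabetic library, while Cela1 was higher at 0.72, beside background shares of 13.9% lower and 12.4% higher. The median of the pancreas markers was -0.42 in FVB/N and -0.17 in C57BL/6. Their summed intensity was 5726 in the FVB/N diabetic library, against 3785 in the FVB/N control library, with Cela1 by far the largest term. Other defining markers, Prss2 and Cela3b, were below the median of all probes in every library, and the part of pancreas RNA was not tested.

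Slc39a14 (ZIP14), which takes up zinc, iron and manganese and is known in liver as an interleukin 6 target, was dim but had 3 probes that moved alike. Its brightest probe measured 5.91 in the FVB/N diabetic library, against 5.64 in the FVB/N control library. In C57BL/6 it measured 5.53 in the diabetic library, against 5.91 in the control library. The FVB/N diabetic and C57BL/6 control libraries were at one level, 0.0013 apart, and the C57BL/6 diabetic library was the lowest. The differences of the 3 probes were 0.26, 0.23 and 0.22 in FVB/N and -0.38, -0.42 and -0.18 in C57BL/6. None reached 1.5-fold, and 2 of the probes were below the median of all probes in every library. The probes share a gene symbol and were read from the same RNA, so they repeat the array reading and not the biology. Whether they target the same transcript was not tested.

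Slc39a4 (ZIP4), the importer of dietary zinc in the intestine, differed little. Its brighter probe measured 6.08 in the FVB/N diabetic library, against 6.28 in the FVB/N control library, and 6.47 in the C57BL/6 diabetic library, against 6.21 in the C57BL/6 control library. The differences were -0.20 in FVB/N and 0.25 in C57BL/6. Its second probe was below the median of all probes throughout, at 0.14 and 0.10.

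Of the exporters, Slc30a4 was lower in FVB/N diabetic kidneys and Slc30a1 and Slc30a2 stayed within 1.5-fold in both strains. Slc30a4 (ZnT4) loads zinc into vesicles, and its loss in mice causes the lethal milk trait, in which milk lacks zinc. It measured 6.83 in the FVB/N diabetic library, against 7.53 in the FVB/N control library. The C57BL/6 readings were 7.40 in the diabetic library, against 7.20 in the control library. Of the 4 libraries the FVB/N diabetic one was lowest, by 0.37 log2. The difference was -0.70 in FVB/N, 1.63-fold lower, and 0.21 in C57BL/6. Of expressed genes, 18.4% were at least as far apart in FVB/N.

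Slc30a1 (ZnT1), the zinc exporter of the plasma membrane and itself an MTF1 target, measured 8.29 in the FVB/N diabetic library, against 8.46 in the FVB/N control library. In C57BL/6 it measured 8.41 in the diabetic library, against 8.14 in the control library. Its differences of -0.17 and 0.27 were both below the single-probe standard deviations of 0.50 and 0.33. The 4 libraries lay within 0.33 log2 of each other. Like Mt1, Mt2 and Slc39a8, it was lowest in the C57BL/6 control library, in its case by 0.15 log2.

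Slc30a2 (ZnT2), which moves zinc into secretory vesicles and is known from mammary gland and pancreas, had almost no diabetes difference, at 0.06 in FVB/N and -0.02 in C57BL/6. It was instead the gene with the largest strain difference in both states, given further on.

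**Figure D2:**
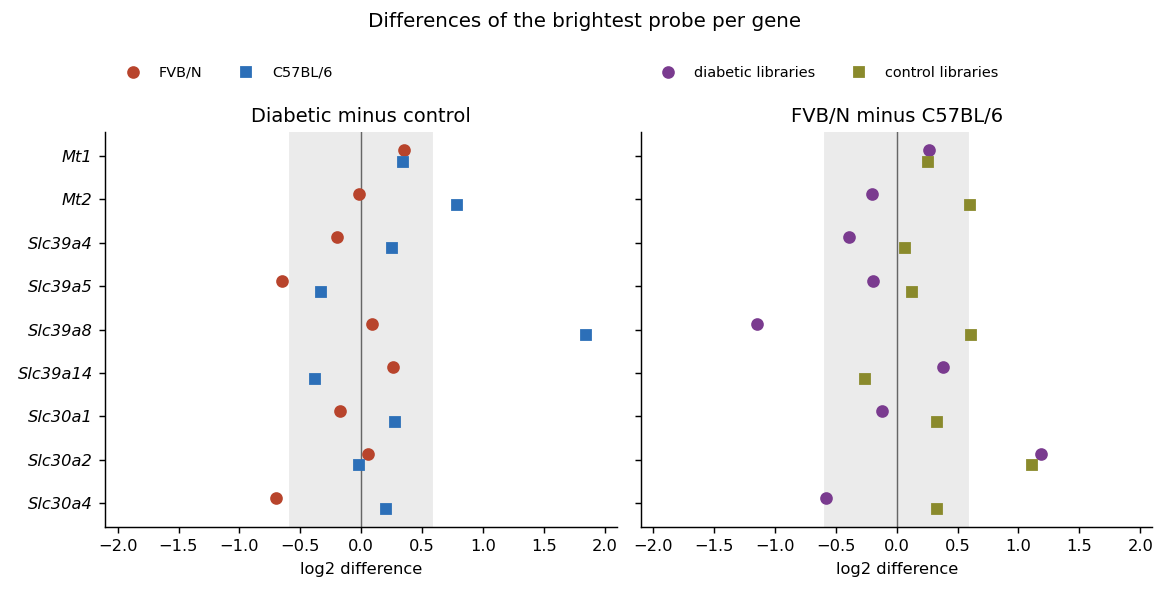
Log2 differences (x axis) of the brightest probe of each of the 9 genes (y axis), diabetic minus control on the left for FVB/N (circles) and C57BL/6 (squares), and FVB/N minus C57BL/6 on the right for diabetic (circles) and control (squares) libraries. The shaded band is within 1.5-fold; Slc39a8 lies farthest right for C57BL/6 at 1.85, and Slc30a2 lies outside the band in both strain comparisons at 1.19 and 1.11.

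Counted together, 0 of the 9 genes were at least 1.5-fold higher and 2, Slc39a5 and Slc30a4, at least 1.5-fold lower in the FVB/N diabetic library. The same call held for 12.4% (higher) and 13.9% (lower) of the expressed genes. In C57BL/6, 2 of 9, Mt2 and Slc39a8, were higher and 0 lower, and the background shares were 6.14% in the higher and 6.35% in the lower direction. The median of the 9 differences was -0.02 in FVB/N, against -0.10 over all expressed genes. In C57BL/6 the median was 0.25, against 0.01 over all expressed genes, with 6 of the 9 above 0. No gene of the 9 was at least 1.5-fold apart in both strains, and Mt1 and Slc39a8 were the 2 with a positive difference in each.

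The difference between the strains' diabetes effects was at least 1.5-fold for 4 of the 9 genes. It was positive for Slc39a14 at 0.64, and negative for Slc39a8 at -1.76, Slc30a4 at -0.91 and Mt2 at -0.81, where a negative value means a lower effect in FVB/N. Over all expressed genes, 15.5% were as far apart in the positive and 18.6% in the negative direction. These differences join 4 libraries and are the least precise, with a single-probe standard deviation of 0.60.

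**Figure D3:**
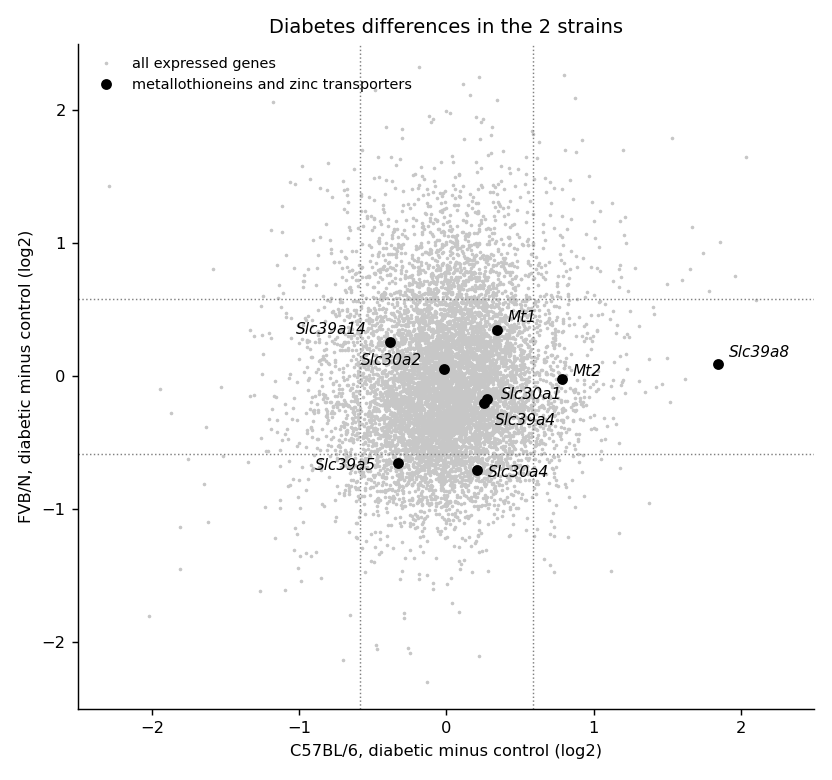
Diabetic minus control in C57BL/6 (x axis, log2) against the same in FVB/N (y axis, log2) for the expressed genes (grey) and the 9 metallothionein and zinc transporter genes (black); 15 expressed genes lie outside the axes. Dotted lines mark 1.5-fold; Slc39a8 lies far to the right at 1.85 in C57BL/6 and 0.09 in FVB/N, and the other 8 genes lie within the bulk of the cloud or at its edge.

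The next comparison asks how the strains differed without regard to diabetes. Slc30a2 was higher in FVB/N whether the mice were diabetic or not. It measured 10.33 in the FVB/N diabetic library, against 9.14 in the C57BL/6 diabetic library. Among controls it measured 10.27 in FVB/N, against 9.16 in C57BL/6. Both FVB/N libraries were above both C57BL/6 libraries by more than 1 log2. The difference, FVB/N minus C57BL/6, was 1.19 in diabetics, 2.28-fold, and 1.11 in controls, 2.16-fold. These are 2 separate pairs of libraries. In controls 3.21% of expressed genes were at least as far apart, and in diabetics 6.70%. One probe carries this result, and whether the strains differ in sequence under that probe was not tested.

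Among controls, 3 of the 9 genes passed 1.5-fold towards FVB/N and 0 towards C57BL/6, beside 6.29% and 6.75% of the expressed genes. They were Slc30a2, and just past the threshold Slc39a8 at 0.61 and Mt2 at 0.61. In diabetics 1 of 9, Slc30a2, was higher in FVB/N and 1, Slc39a8 at -1.14, was lower, beside 14.7% and 16.9% of the expressed genes. With its probes averaged, Slc39a8 came to -0.58 in diabetics and 0.37 in controls, both within 1.5-fold. Mt1 was higher in FVB/N in both states, by 0.26 in diabetics and 0.25 in controls, within 1.5-fold. Slc39a8 and Mt2 thus had opposite signs in the 2 states, at -1.14 and -0.20 in diabetics. Slc30a4 stood at -0.58 in diabetics, just within 1.5-fold, and at 0.33 in controls. These strain comparisons use the same 4 libraries as the diabetes comparisons and add no separate evidence on Slc39a8, Mt2 or Slc30a4.

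The rest of the zinc machinery was read from a list of 19 further genes, of which 15 were on the array and 11 expressed. Of these 11, 2 passed 1.5-fold upwards and 1 downwards in FVB/N diabetic kidneys, and in C57BL/6 diabetic kidneys 0 upwards and 1 downwards. Beside the background of 12.4% and 13.9% in FVB/N and of 6.14% and 6.35% in C57BL/6, these few calls do not set the list apart. Slc39a7 (ZIP7), which releases zinc from the endoplasmic reticulum and Golgi, went opposite ways. It measured 7.13 in the FVB/N diabetic library, against 6.50 in the FVB/N control library, and 5.85 in the C57BL/6 diabetic library, against 6.97 in the C57BL/6 control library. Its differences were 0.63 in FVB/N and -1.11 in C57BL/6, so the C57BL/6 diabetic library was the lowest. Slc39a6 (ZIP6) was higher in FVB/N at 0.75 and stood at 0.21 in C57BL/6. Slc39a10 (ZIP10), its close relative, was lower in FVB/N at -0.85 and stood at -0.33 in C57BL/6.

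The other 8 zinc genes stayed within 1.5-fold in both strains. Slc30a5, a zinc transporter of the early secretory pathway, stood at 0.57 in FVB/N and 0.31 in C57BL/6. The zinc sensor Mtf1 was dim, between 5.58 and 5.87, and differed by 0.26 in FVB/N and -0.04 in C57BL/6. Mt3, the metallothionein best known from brain, was below the median of all probes in every library, between 4.83 and 5.17. Mt4, known from squamous epithelium, lay between 5.33 and 5.70. The median difference over the 11 genes was 0.21 in FVB/N and -0.04 in C57BL/6.

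Manganese shares some of these carriers, and metallothioneins also bind copper. Of 8 expressed copper genes, 1 was at least 1.5-fold higher and 0 lower in each strain, in FVB/N a share near the background of 12.4% higher, with 6.14% in C57BL/6. In FVB/N it was Slc31a2, a copper transporter of endosomes and lysosomes, at 0.68. In C57BL/6 it was ceruloplasmin, Cp, the copper-carrying ferroxidase, at 0.83. Atox1, the chaperone that hands copper to the copper pumps, stood at -0.50 in FVB/N and -0.04 in C57BL/6, and the mitochondrial copper chaperone Cox17 at 0.44 and 0.11. Of 7 expressed genes listed under manganese and iron transport, 2 were higher in FVB/N and 0 lower, and 0 were higher and 2 lower in C57BL/6. The background was 12.4% higher and 13.9% lower in FVB/N and 6.14% and 6.35% in C57BL/6. The pair was the same, Slc11a2 and Atp13a1. Slc11a2 (DMT1), the proton-coupled importer of iron and manganese, stood at 0.70 in FVB/N and -0.75 in C57BL/6. The endoplasmic reticulum ATPase Atp13a1 stood at 1.37 in FVB/N and -0.68 in C57BL/6, where its diabetic value of 5.36 was below the median of all probes. Whether Atp13a1 moves manganese or iron was not tested. The iron exporter Slc40a1 was at -0.58 in FVB/N, just within 1.5-fold, and the phagosomal transporter Slc11a1 at -0.53. Slc39a8 and Slc39a14 carry manganese too, and their C57BL/6 differences, 1.85 and -0.38, had opposite signs.

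**Figure D4:**
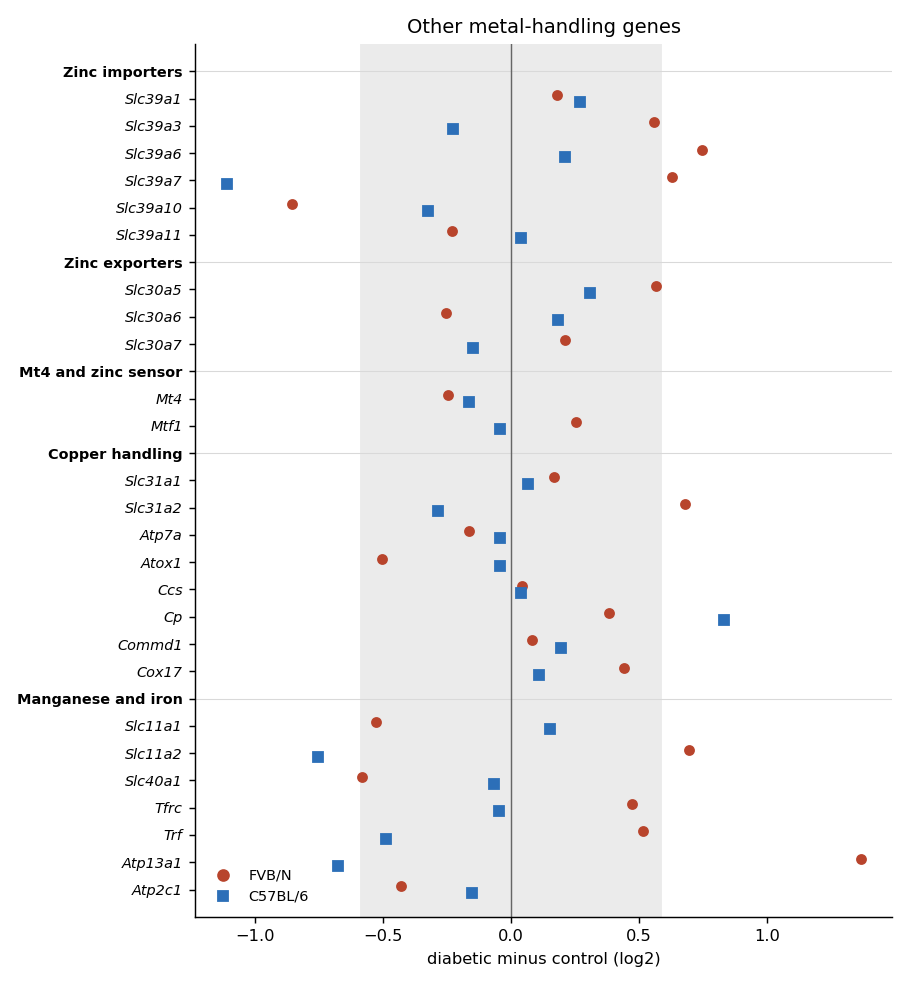
Diabetic minus control (x axis, log2) in FVB/N (circles) and C57BL/6 (squares) for the expressed genes of 5 lists of zinc, copper, manganese and iron handling (y axis), with the band within 1.5-fold shaded. Slc39a7, Slc11a2 and Atp13a1 lie outside the band to the right in FVB/N and to the left in C57BL/6.

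The pathways that induce metallothioneins were read from 3 lists. The background for their counts is the 12.4% (higher) and 13.9% (lower) of expressed genes in FVB/N and the 6.14% and 6.35% in C57BL/6. Of 9 listed glucocorticoid genes, 7 were expressed. The receptor gene Nr3c1, below the median of all probes in every library, and the target Tsc22d3 were not. Among the 7 expressed, 5 reached 1.5-fold upwards and 0 downwards in FVB/N, with a median of 0.71. Pdk4, which restrains pyruvate oxidation, stood at 1.29, the sulfotransferase Sult1a1 at 1.14, the receptor cochaperone Fkbp5 at 0.80 and the clock gene Per1 at 0.71. Per1 was dim and measured 5.44 in the FVB/N control library, below the median of all probes. The kinase Sgk1 at -0.03 and the phosphatase Dusp1 at 0.32 stayed within 1.5-fold. In C57BL/6, 0 were higher and 1 was lower, Fkbp5 at -0.64, with a median of 0.06. Of 7 expressed NRF2 targets, 4 were higher and 0 lower in FVB/N, with a median of 0.78. They were Hmox1, which breaks down heme, at 2.07, Nqo1, which reduces quinones, at 1.39, Gclc of glutathione synthesis at 1.26 and the sulfiredoxin Srxn1 at 0.78. The thioredoxin reductase Txnrd1 at -0.57 and the glutathione reductase Gsr at -0.33 had differences of the opposite sign, within 1.5-fold. In C57BL/6, 0 were higher and 2 lower, Hmox1 at -1.18 and Gclc at -0.70, with a median of -0.33.

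Of 14 listed interleukin 6 and acute phase genes, 8 were expressed. Among these 8, 2 were higher and 1 lower in each strain, where the lower share in FVB/N is near the background of 13.9%. The fibrinogen gene Fgg missed the expression minimum and was not counted, at 1.68 in FVB/N and 0.59 in C57BL/6. It was below the median of all probes in 3 libraries. The other unexpressed members stayed within 1.5-fold in both strains. The iron-binding lipocalin Lcn2 was higher in both, at 2.88 in FVB/N and 1.25 in C57BL/6. In FVB/N the fibrinogen chain Fga was higher at 0.90 and haptoglobin, Hp, lower at -1.24. In C57BL/6 the feedback inhibitor Socs3 was higher at 0.77 and the oncostatin M receptor Osmr lower at -0.77. Socs3 stood at 0.12 in FVB/N. Il6 itself was below the median of all probes in every library. The part of these pathways in the metallothionein values was not tested.

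**Figure D5:**
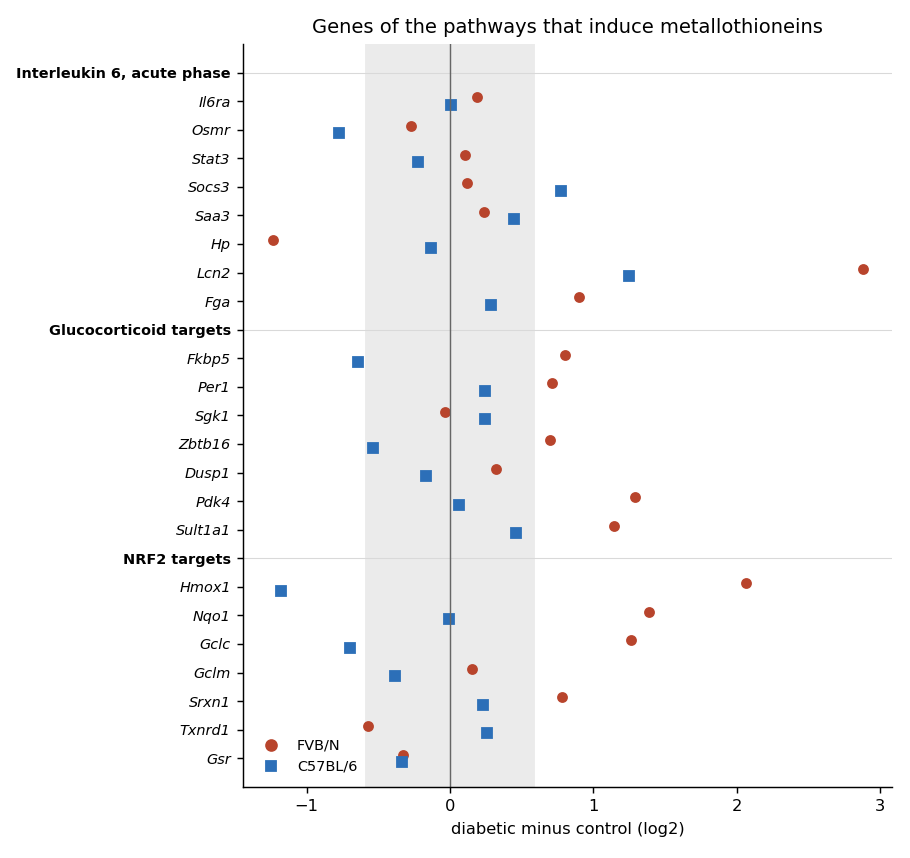
Diabetic minus control (x axis, log2) in FVB/N (circles) and C57BL/6 (squares) for the expressed genes of the interleukin 6, glucocorticoid and NRF2 lists (y axis), with the band within 1.5-fold shaded. The FVB/N circles of the glucocorticoid and NRF2 lists lie mostly to the right of the C57BL/6 squares, while Socs3 lies farther right in C57BL/6 at 0.77.

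Genes with the most similar pattern were sought by the distance between profiles over the 4 libraries, after each gene was centred on its own mean. For Mt1 the nearest of the 9201 expressed genes were Hdac7 at a distance of 0.0357 log2, Smarcb1 at 0.0370 and Xrcc1 at 0.0432. For Mt2 they were Mpp4 at 0.0985, Cox11 at 0.108 and Bco1 at 0.117, and Mt1 was not among them. For Slc39a8 they were Apcdd1 at 0.247, N4bp2l2 at 0.254 and Ecrg4 at 0.423. These distances grow with the size of a profile's swings, 1.85 log2 for Slc39a8 against 0.61 for Mt1 and 0.79 for Mt2, and are not comparable between the 3 genes. Apcdd1 measured 8.28 in the C57BL/6 diabetic library, against 6.78 in the C57BL/6 control library, with 7.35 and 7.22 in the FVB/N diabetic and control libraries. With 4 points per profile such likeness is a description of these libraries.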

How the data were processed

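Kidney RNA of 4 groups was measured on Illumina mouse arrays; per the labels' protocols Trizol extracts were treated with DNase on columns, and biotinylated cRNA was stained with streptavidin-Cy3. By their range the deposited values are taken to be log2 intensities, and the 4 columns have near-identical distributions, as after quantile normalization, but the authors' background correction, normalization and filters are not stated in the labels. The values were used as they are, and the depth measure for arrays, detection over background, is not part of them, so 1 array per group limits the precision.

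Probes were named from the platform annotation (20984 probes with 1 symbol), and 20968 symbols were checked by gene identifier, of which 0 differed. Differences were computed with Python 3.11.15, pandas 2.3.3 and statsmodels 0.14.6, and the code was tested on simulated data. No test was run. The 10 genes, the lists and the thresholds were chosen with earlier results of these data known. Named genes are all 10 members and zinc genes at least 1.5-fold apart. Of other lists described, they are up to 4 expressed members with the largest differences. The 3 nearest profiles of Mt1, Mt2 and any member 2-fold apart between diabetic and control are also named. Slc30a5, Mtf1, Mt3, Mt4, Il6, Osmr, Aif1, C1qa, Sgk1, Dusp1, Txnrd1, Gsr, Prss2, Cela3b, Slc34a1 and Umod were added after their values were seen. So were Nphs1, Slc5a2, Nr3c1, Tsc22d3 and Fgg.

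Median diabetes differences of expressed markers are given for FVB/N and then C57BL/6. They were -0.13 and -0.27 for 8 of the proximal tubule and 0.06 and 0.25 for 5 of the loop of Henle. For 2 of the distal convoluted tubule they were -0.19 and -0.01, and for 6 of principal cells 0.64 and -0.03. For 4 of intercalated cells they were 0.07 and -0.13, and for 3 of podocytes -0.10 and -0.30. Endothelium, with 5, had -0.32 and -0.56, and hepatocytes, with 4, had 0.05 and 0.41. Some medians hide a wide spread. The 2 distal convoluted tubule markers had opposite signs, from -0.71 to 0.32 in FVB/N and from -0.33 to 0.30 in C57BL/6. Principal cell markers ran from -0.31 to 2.81 in FVB/N. Alternatives were quantile normalization, median centring, loess centring on intensity (span 0.3), the mean of all probes, no expression filter, a filter at percentile 75, and values raised to the probe median.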

Additional observations from a re-analysis of the deposited data

Results flagged for a closer look

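For 3 genes the diabetic library lay above control in one strain and below it in the other, with the strains' effects at least 1.5-fold apart. These differences, FVB/N minus C57BL/6, were -0.81 for Mt2, 0.64 for Slc39a14 and -0.91 for Slc30a4 on the log2 scale. With 1 library per group the difference between the strains was not tested for any of them. For Mt2 the FVB/N effect was -0.02, and its sign changed to a positive 0.04 with loess centring. Over all expressed genes, the strains' effects were at least 1.5-fold apart in the positive direction for 15.5% and in the negative direction for 18.6%.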

How the results depend on the processing

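Of 290 values of single genes under 7 alternatives, 288 moved by less than the single-probe standard deviation and none at least 1.5-fold apart changed sign. The 2 that moved were those of Slc39a8 with the mean of its probes, at 1.05 in C57BL/6 and -0.94 for the difference between the strains' effects. Many of the 290 could not move, so their count is no measure of robustness. Filters leave a gene's value as it is, and no gene's brightest probe lay below the probe median in any library. Averaging changes nothing for the 5 genes with 1 probe. Quantile normalization and median centring act on columns with near-identical distributions. With the mean of all probes, Slc39a14 dropped below the expression minimum, the count of genes lower in FVB/N diabetics became 1, that of genes lower in FVB/N among diabetics 0, and that of genes with a higher effect in FVB/N 0. The stricter filter at 7.26 left 5 of the 9 genes. Under it 1 gene was lower in FVB/N diabetics, 1 was higher in C57BL/6 diabetics, 0 were lower in FVB/N among diabetics, 0 had a higher and 1 a lower effect in FVB/N; fewer genes were counted. The Mt2 strain difference in controls came to 0.58 with loess centring, just short of 1.5-fold, and that of Slc39a8 came to 0.37 in controls and -0.58 in diabetics with averaged probes. Slc39a5 came to -0.23 in FVB/N with averaged probes. No paired analysis was possible because each group has 1 library.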
